A study of Mus musculus with 30 samples.

Results

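The 10 genes followed here mark the fibroblasts of the adventitia, the outer connective tissue coat of an artery, and were measured by bulk RNA-seq of the mouse descending thoracic aorta. They were *Pi16*, *Dpt*, *Igfbp6*, *Fbln2*, *Sfrp2*, *Sfrp4*, *Clec3b*, *Mfap5*, *Cd34* and *Pdgfra*, taken by symbol as 10 of the 26253 genes listed. The list was chosen by gene name from known markers, with earlier levels and fold changes of some members in these same libraries in view. Levels are therefore given as a description, and no p-value below is independent evidence about the members.

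The study compared male mice on a C57BL/6J background that model vascular Ehlers-Danlos syndrome (VEDS) with controls, using 30 aorta libraries in 6 groups. VEDS mice carried 1 *Col3a1* allele with a glycine substitution in collagen III, whereas controls were *Col3a1*+/+. The groups were 3 aortas of VEDS mice given hydralazine with spironolactone (HS), 3 of VEDS mice given hydralazine with bicalutamide (HB), 6 each of VEDS and control mice given hydralazine alone, and 6 each of untreated VEDS and control mice. Hydralazine, a vasodilator, was given at 32 mg/kg/day in drinking water starting at birth. Spironolactone (100 mg/kg/day), which blocks the mineralocorticoid and androgen receptors, or bicalutamide (50 mg/kg/day), which blocks the androgen receptor, was added in chow at day 21, and HS and HB aortas were collected at day 60. The untreated and hydralazine groups each mix aortas collected at day 30 and at day 60, and the labels do not give the age of a library, so the added drug and age cannot be told apart where HS or HB is compared with these groups. The submitters' extraction notes state that adventitia was pulled off with forceps, while the study's methods describe the removal of perivascular fat. How much adventitia remained was not measured.

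Adventitial fibroblasts make the collagen-rich outer coat that limits how far an artery can stretch. Cells high in *Pi16* and *Dpt* are regarded across mouse tissues as a progenitor-like fibroblast state that sits around vessels, and they secrete fibulins, microfibril proteins and modulators of Wnt and insulin-like growth factor (IGF) signals. *Cd34*, a sialomucin of the cell surface, also marks endothelial cells, and *Mfap5*, a microfibril glycoprotein, is also made by smooth muscle cells, so a level in whole tissue has more than 1 possible source.

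Library totals ran between 5517510 and 8293289 expected counts, and every member had between 164 and 4114 counts in every library. All 18 other adventitial fibroblast markers that were looked up were listed, and only *Has1* was at 0 in any library (1 of 30). *Myh11*, the smooth muscle myosin heavy chain, had a median of 806 TPM and ranked 26 among all genes, so the tissue was rich in smooth muscle, and *Col3a1* had 795 TPM and ranked 27. The counts do not separate the mutant from the wild-type *Col3a1* allele and so do not check genotype. The libraries fell into 2 sets by *Col3a1*, with 12 between 13568 and 17690.5 CPM (counts scaled to a common library size) and 18 between 4316 and 7710 CPM. The 12 comprised 3 libraries of each untreated and hydralazine group, and all HS and HB libraries were among the 18. Heart muscle genes set 2 libraries apart. HB replicate 2 held 918 CPM of 6 cardiomyocyte markers summed, and replicate 5 of the control hydralazine group held 955 CPM, against at most 291 CPM in the other 28. Of these markers *Ryr2* had a median of 191 CPM over 30 libraries (103 to 279), and the others had medians between 1.88 and 8.30 CPM. The sum in a typical library was thus mainly *Ryr2*. Because the tissue was sequenced in bulk, fewer fibroblasts and less RNA per fibroblast cannot be told apart in any value below.

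Promoter sequences show what lies upstream of the members. RefSeq promoter entries (GRCm38.p6, another build than the mm39 of the counts) were matched by symbol for 7 of the 10 members, the others being *Mfap5*, *Clec3b* and *Sfrp4*. The 250 bases before the start were searched on both strands for AGAACA, a half-site of steroid receptors, for TGANTCA, which AP-1 factors bind, for GGAATG, which TEAD factors bind, for CAGCTG, an E-box, and for TATAAA, the core promoter motif. The 4 shown are *Pi16*, the only one of the 7 with a half-site of the receptor class that both added drugs block, *Dpt* and *Cd34*, the pair with the highest correlation in 1 set of libraries, and *Igfbp6*, the member with the widest range over libraries. Capitals mark a match on either strand.
Pi16, chr17:29318632-29318881, + strand: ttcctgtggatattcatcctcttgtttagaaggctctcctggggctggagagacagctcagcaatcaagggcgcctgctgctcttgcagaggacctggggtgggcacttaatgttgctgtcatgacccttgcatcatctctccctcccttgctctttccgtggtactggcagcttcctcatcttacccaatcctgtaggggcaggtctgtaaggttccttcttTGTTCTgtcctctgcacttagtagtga
Dpt, chr1:164796413-164796662, + strand: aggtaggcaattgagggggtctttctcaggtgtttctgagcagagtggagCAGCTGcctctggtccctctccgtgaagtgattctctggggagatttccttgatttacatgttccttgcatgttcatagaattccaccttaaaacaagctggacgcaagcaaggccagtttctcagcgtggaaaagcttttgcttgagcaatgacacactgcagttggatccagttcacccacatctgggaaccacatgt
Cd34, chr1:194938571-194938820, + strand: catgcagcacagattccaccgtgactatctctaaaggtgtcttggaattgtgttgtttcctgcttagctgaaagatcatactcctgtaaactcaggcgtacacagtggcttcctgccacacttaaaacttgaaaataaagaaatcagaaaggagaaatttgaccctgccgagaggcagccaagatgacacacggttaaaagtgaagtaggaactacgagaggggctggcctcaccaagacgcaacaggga
Igfbp6, chr15:102143936-102144185, + strand: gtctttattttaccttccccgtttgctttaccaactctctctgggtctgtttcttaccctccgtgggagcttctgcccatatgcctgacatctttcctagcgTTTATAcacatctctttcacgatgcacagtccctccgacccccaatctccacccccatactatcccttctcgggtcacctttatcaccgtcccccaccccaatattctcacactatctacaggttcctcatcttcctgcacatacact
The half-site match in *Pi16* began 27 bases before the start, on the reverse strand (TGTTCT), and 16.1% of 32851 mouse promoters searched held at least 1. *Dpt* held an E-box 200 bases before the start (13% of promoters), and *Igfbp6* held TATAAA on the reverse strand 148 bases before it (12.4%). *Cd34* held none of the 5, and no member held the AP-1 or TEAD sequence (6.75% and 12.6% of promoters). These matches describe letters in a window and not a bound site.

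Levels of different genes were ordered in TPM, which corrects for transcript length. *Mfap5* was the most abundant member, with a median of 169 TPM over 30 libraries, and ranked 184 among all genes. *Pi16* (100.4 TPM) and *Dpt* (90.0 TPM) came next and could not be ranked, since *Pi16* was above *Dpt* in only 17 of 30 libraries. *Dpt* was above *Cd34* (73.5 TPM), and *Cd34* above *Sfrp2* (45.9 TPM), in 30 of 30 libraries. The next neighbours crossed, with *Sfrp2* above *Fbln2* (38.8 TPM) in 25 libraries, *Fbln2* above *Igfbp6* (34.3 TPM) in 20, *Igfbp6* above *Clec3b* (28.5 TPM) in 21 and *Clec3b* above *Sfrp4* (27.2 TPM) in 17. *Pdgfra*, the platelet-derived growth factor receptor that marks fibroblasts, was lowest at 16.9 TPM and below *Sfrp4* in all 30 libraries, at rank 2232. The small RNA genes *Rn7s1* and *Rn7s2* held a median of 63.1% of all TPM, so TPM were used only for this order.

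**Figure D1:**
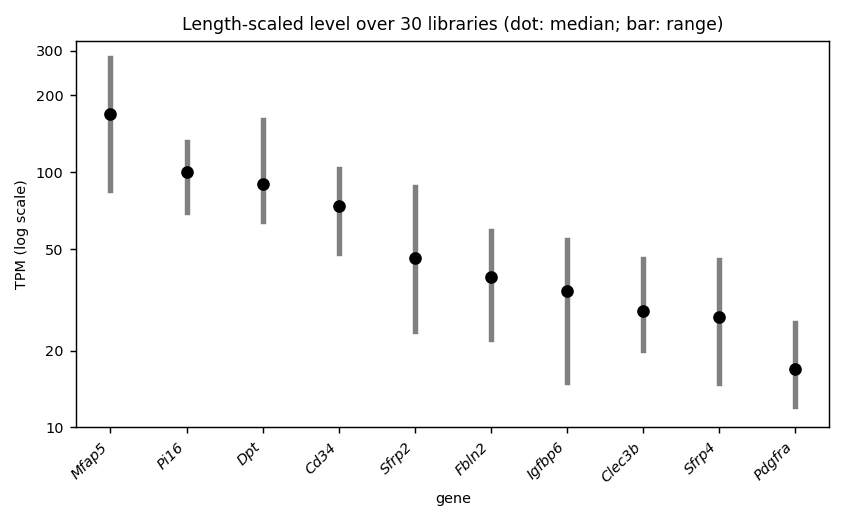
TPM of the 10 members on a log axis, with a point at the median over 30 libraries and a line between the lowest and highest library, ordered by median. *Mfap5* (169 TPM) and *Pdgfra* (16.9 TPM) were the ends of the order, and the ranges of *Pi16* and *Dpt* and of *Clec3b* and *Sfrp4* overlapped.

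RSEM weights the transcript length of a gene by its isoforms, and this length took a single value in 6 members (*Pi16*, *Dpt*, *Igfbp6*, *Sfrp2*, *Sfrp4* and *Clec3b*). Over the 30 libraries its range was 0.158% of the median in *Mfap5*, 0.744% in *Fbln2*, 0.967% in *Cd34* and 4.41% in *Pdgfra*, where lengths ran between 6246 and 6531 bases. A single length cannot show a change in isoform use, and isoforms of like length would not move it.

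The matrix and microfibril members had the following levels in CPM. *Fbln2*, which encodes fibulin-2, a matrix glycoprotein that links elastin and basement membrane components, had 356, 349 and 339 CPM in the HS libraries and 282, 341 and 285 CPM in the HB libraries. Its lowest, median and highest values were 265, 339.7 and 371 CPM in VEDS hydralazine aortas and 175, 277 and 312 CPM in control hydralazine aortas. They were 212, 232 and 289 CPM in untreated VEDS aortas and 174, 190.0 and 282 CPM in untreated controls. The medians of *Fbln2* were thus lowest in the untreated groups, and HS libraries lay above every untreated library of either genotype. The share of all genes for which this held was not counted. *Mfap5* had 375, 400.4 and 477 CPM in HS, against 275, 337 and 349 CPM in HB. In the groups of 6 it ran widely, with medians of 355 CPM in VEDS hydralazine, 403 CPM in control hydralazine, 312 CPM in untreated VEDS and 287 CPM in untreated control aortas. Within untreated VEDS the 6 libraries fell at 197, 205 and 228 CPM and at 396, 399.3 and 407 CPM, with no value between, and within untreated controls at 195, 205 and 207 CPM and at 367, 432 and 464 CPM. *Dpt*, dermatopontin, a small matrix protein that binds decorin and promotes collagen fibril assembly, was between 181 and 360 CPM and averaged 216 ± 12.8 CPM in HS, 206 ± 18.0 CPM in HB, 258 ± 55.2 CPM in VEDS hydralazine, 261 ± 55.0 CPM in control hydralazine, 258 ± 66.3 CPM in untreated VEDS and 257 ± 76.9 CPM in untreated control aortas (SD, n = 3 for HS and HB and 6 for the others). The SD of *Dpt* within a group of 6 included the division into high and low libraries, since untreated controls fell at 181, 184 and 209 CPM and at 279, 329 and 360 CPM.

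The levels of the secreted signal modulators were as follows. *Igfbp6*, which encodes a binding protein with a preference for IGF2, had 81.3, 97.6 and 112 CPM in HS and 55.5, 64.2 and 74.1 CPM in HB, without overlap, as for 13.6% of all genes. Its lowest, median and highest values were 52.6, 75.2 and 84.7 CPM in VEDS hydralazine and 25.8, 42.0 and 72.8 CPM in control hydralazine aortas. They were 44.4, 69.5 and 91.1 CPM in untreated VEDS and 27.8, 44.2 and 53.9 CPM in untreated control aortas. *Igfbp6* had the widest range of any member, with the highest library 4.36 times the lowest. *Sfrp4* and *Sfrp2* encode secreted frizzled-related proteins, which bind Wnt ligands outside the cell. *Sfrp4* had 64.0, 87.9 and 49.1 CPM in HS, 52.9, 68.4 and 65.0 CPM in HB, a median of 76.2 CPM (65.6 to 115) in VEDS hydralazine, 56.3 CPM (48.3 to 74.1) in control hydralazine, 72.2 CPM (58.4 to 90.6) in untreated VEDS and 52.0 CPM (47.1 to 85.7) in untreated control aortas. Its VEDS medians lay above the control medians under both treatments, and the ranges overlapped. *Sfrp2* had 119, 163 and 90.2 CPM in HS, 167, 148 and 185 CPM in HB, a median of 145 CPM (118 to 162) in VEDS hydralazine, 194 CPM (122 to 231) in control hydralazine, 117 CPM (88.0 to 154) in untreated VEDS and 123 CPM (111 to 131) in untreated control aortas. Here control hydralazine aortas were the highest group, whereas for *Sfrp4* they were among the lowest.

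The remaining members mark the cell state and surface. *Pi16*, a secreted peptidase inhibitor family protein, had 383, 397 and 366 CPM in HS and 298, 373 and 321 CPM in HB. Its medians were 320.2 CPM (289 to 365) in VEDS hydralazine, 317 CPM (274 to 413.4) in control hydralazine, 316 CPM (300.0 to 349) in untreated VEDS and 307 CPM (245 to 357) in untreated control aortas. The HS libraries lay above all 12 VEDS libraries that received no antagonist, while control hydralazine libraries reached as high. The margin was narrow, with 366.2 CPM in the lowest HS library and 365.4 CPM in the highest VEDS hydralazine library. The share of all genes separate in this way was not counted. *Cd34* averaged 280.2 ± 16.4 CPM in HS, 246 ± 30.8 CPM in HB, 275 ± 39.5 CPM in VEDS hydralazine, 276 ± 49.0 CPM in control hydralazine, 274 ± 34.5 CPM in untreated VEDS and 265 ± 66.5 CPM in untreated control aortas (SD). *Pdgfra* averaged 171 ± 14.8, 157 ± 3.41, 169.9 ± 21.7, 178 ± 20.7, 183 ± 35.5 and 171 ± 26.7 CPM in these groups in turn, and *Clec3b*, which encodes the plasminogen-binding lectin tetranectin, 38.5 ± 4.67, 33.7 ± 6.37, 32.8 ± 6.13, 38.7 ± 8.95, 41.1 ± 9.10 and 39.3 ± 10.9 CPM. For these 3 genes the largest SD within a group exceeded every difference between group means, though the SD in the groups of 6 spans libraries high and low in *Col3a1*. *Pi16* and *Pdgfra* were the steadiest members over all libraries, with the highest library 1.69 times the lowest.

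**Figure D2:**
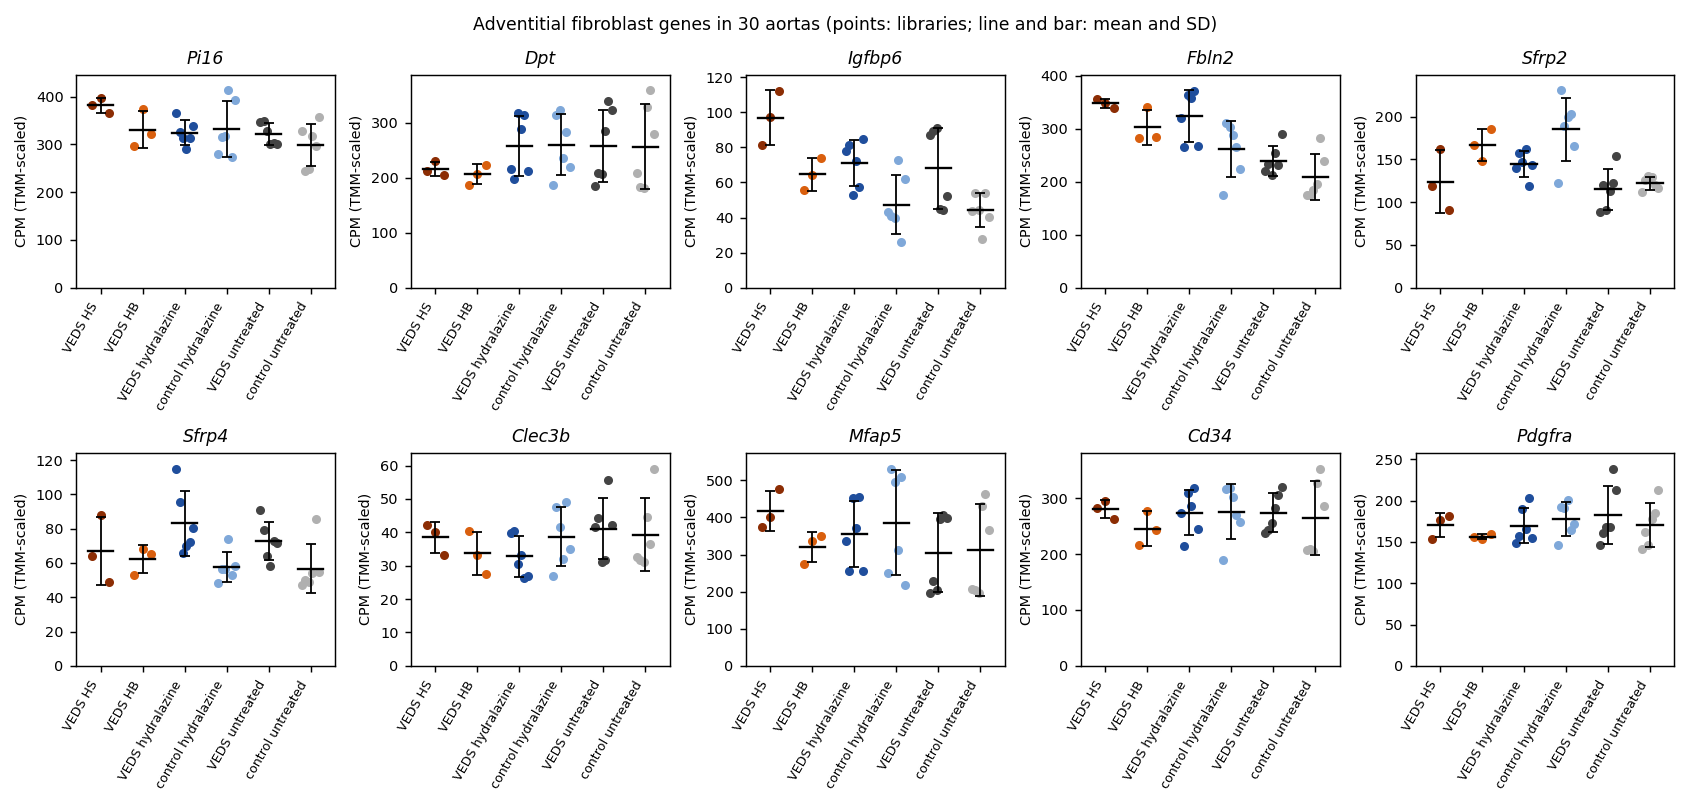
CPM of each member in its own panel, with 1 point per library and the group mean and SD (n = 3 for HS and HB, 6 for the others). *Mfap5* and *Dpt* show 2 clusters of points within the groups of 6, and *Igfbp6* is higher in HS (97.1 ± 15.6 CPM) than in HB (64.6 ± 9.31 CPM).

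Much of the spread within groups went with the division of the libraries by *Col3a1*, and the members differed in this. In each of the 4 groups of 6, the 3 libraries highest in *Col3a1* were noted, 12 in all. All 12 were also among the 3 highest of their group in *Dpt* and in *Mfap5*, 11 of 12 in *Cd34*, 10 of 12 in *Fbln2* and *Pdgfra*, and 9 of 12 in *Clec3b*. The count was 7 of 12 for *Sfrp2* and 5 of 12 for *Sfrp4*. It was lower for *Pi16*, at 3 of 12, and lowest for *Igfbp6*, at 1 of 12. For a gene unrelated to *Col3a1*, each of the 12 libraries would have a 3 in 6 chance of being counted. The counts over all genes were not taken. In untreated VEDS aortas, the 3 libraries low in *Col3a1* had 86.9, 89.5 and 91.1 CPM of *Igfbp6*, and the 3 high in *Col3a1* had 44.4, 44.9 and 52.2 CPM. *Dpt* and *Mfap5* were high and *Igfbp6* low in the libraries of this group that were high in *Col3a1*. The paper lists *Col3a1* among transcripts that fall from before to after puberty, less so in VEDS aortas. All HS and HB libraries, which were collected at day 60 and also received an antagonist, were among the 18 low in *Col3a1*. The labels give neither age nor extraction batch for a library in the groups of 6, so the division could not be set against them. Whether it follows age was not tested.

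**Figure D3:**
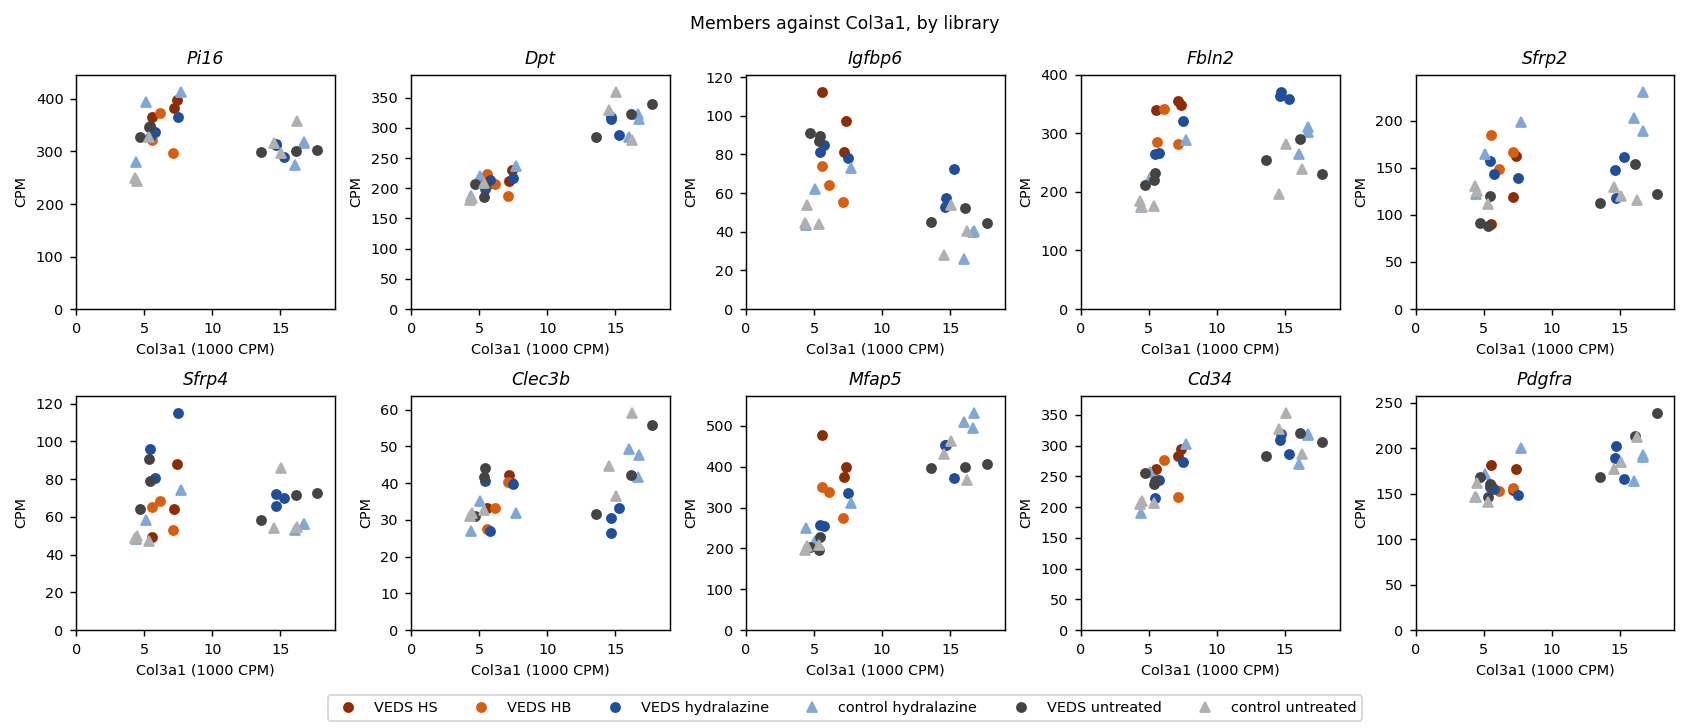
Level of each member (CPM) against *Col3a1* (CPM), 1 point per library with colours for groups, circles for VEDS and triangles for control. The 12 libraries between 13568 and 17690.5 CPM of *Col3a1* lie apart from the 18 between 4316 and 7710 CPM, with *Dpt* and *Mfap5* high and *Igfbp6* mostly low in the 12.

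Because of these 2 sets, correlations between members were taken within each, after the group mean was subtracted from log2(CPM + 1), with an exact permutation test within groups and adjustment over 45 pairs. This split was chosen after the data were seen. In the 18 libraries low in *Col3a1*, 41 of 45 pairs had r above 0 (median 0.46), and 1 pair passed the adjusted test. This was *Igfbp6* with *Pdgfra* (r = 0.87, exact permutation p = 0.000493, adjusted p = 0.0222; rho = 0.85, p = 0.000472, adjusted p = 0.0212; r = 0.75 without the 2 libraries farthest from the median of the first gene). In the 12 libraries high in *Col3a1* the same pair had r = 0.17 and rho = 0.01 (exact permutation p = 0.56 and 0.98). In those 12 libraries 32 of 45 pairs had r above 0 (median 0.17) and none passed, with 5 at an unadjusted p under 0.05. The highest r there was between *Dpt* and *Cd34* (r = 0.93, exact permutation p = 0.0054, adjusted p = 0.226; rho = 0.76, p = 0.0424, adjusted p = 0.477; r = 0.87 without 2 libraries). In the 18 libraries that pair had r = 0.76 (exact permutation p = 0.00645, adjusted p = 0.0895) and rho = 0.67 (p = 0.0194, adjusted p = 0.145). *Dpt* and *Cd34* were thus positively related in both sets, without passing the adjusted test in either. *Igfbp6* and *Dpt* had no negative r within the sets, with r = 0.26 and rho = 0.22 in the 12 libraries (exact permutation p = 0.64 and 0.62, adjusted p = 0.89 and 0.96) and r = 0.55 and rho = 0.46 in the 18 (exact permutation p = 0.13 and 0.14, adjusted p = 0.38 and 0.41). With *Mfap5* its r was -0.10 in the 12 and 0.47 in the 18, and its rho -0.10 and 0.39 (exact permutation p = 0.86 and 0.19 for r, and 0.82 and 0.23 for rho). Each member was also set against the mean of 9 cell type lists, and of 90 relations none passed in the 12 libraries (lowest adjusted p = 0.573) or the 18 (0.0588). The 12 libraries allow far fewer permutations within groups than the 18. There a single relation of the 90 could not pass at any r. A single pair of the 45 could pass only at its most extreme permutation. What passed in the 12 and in the 18 therefore cannot be compared.

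**Figure D4:**
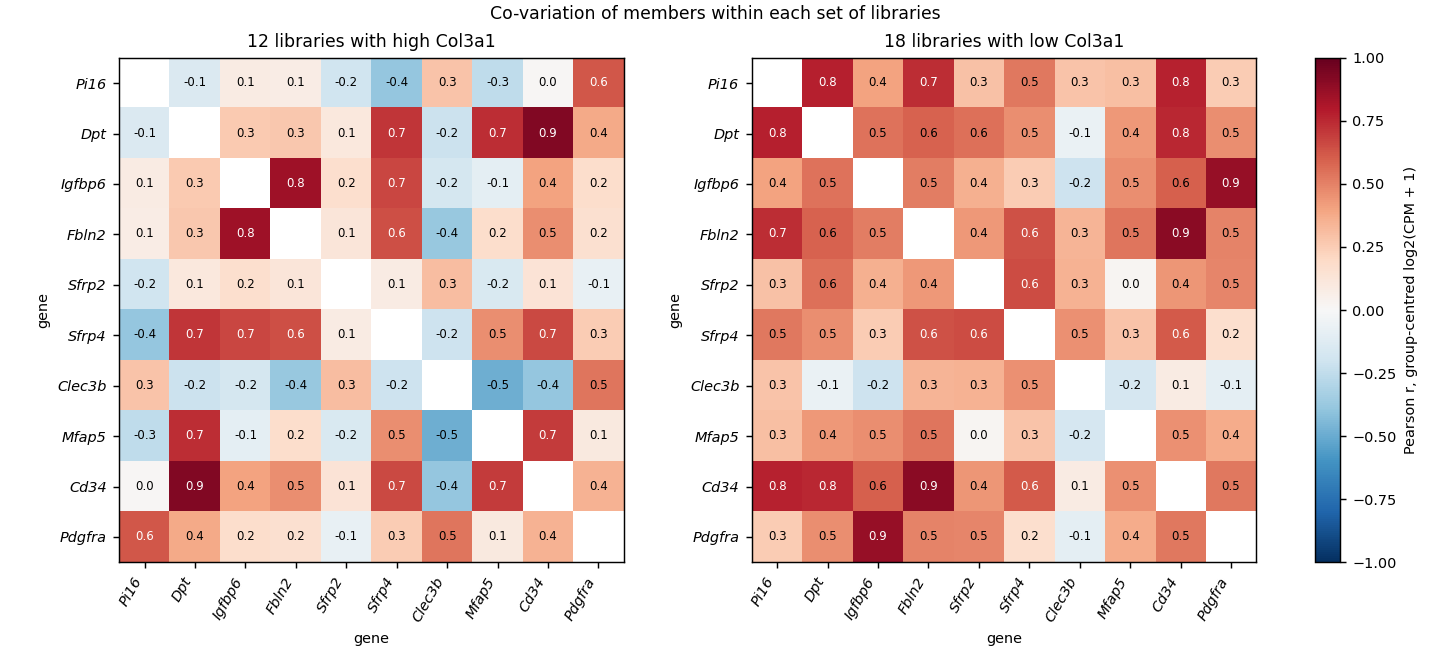
Pearson r between members after the group mean was subtracted, in the 12 libraries high in *Col3a1* and in the 18 low in *Col3a1*. The 45 pairs had a median r of 0.17 in the 12 and 0.46 in the 18, where *Igfbp6* with *Pdgfra* (0.87) was the 1 pair to pass the adjusted test. The 12 allow far fewer permutations, so what passed cannot be compared between the sets.

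Of 11121 other genes with a mean of at least 5 CPM, the 8 whose group-centred profile over 30 libraries was most like the mean profile of the members were *Pcolce*, *Bicc1*, *Cilp*, *Gas7*, *Csf1r*, *Mmp2*, *Ctsk* and *Fndc1*. *Pcolce*, an enhancer of procollagen C-proteinase, had r = 0.24 with that profile in the 12 libraries high in *Col3a1* and 0.87 in the 18. *Ctsk*, the collagen-degrading protease cathepsin K, had 0.64 and 0.82, and *Cilp*, a cartilage matrix protein, 0.59 and 0.87. The macrophage receptor gene *Csf1r* was among the 8 (0.49 and 0.77), so the likeness was not limited to matrix genes. Taken singly, *Fbln2* was most like the gelatinase gene *Mmp2* (0.84 and 0.82), *Cd34* like *Ctsk* (0.85 and 0.72), *Mfap5* like *Fstl1* (0.78 and 0.75), *Pi16* like *Scara5* (0.75 and 0.73), *Sfrp4* like *Pip4k2a* (0.75 and 0.84), *Pdgfra* like *Bicc1* (0.71 and 0.71) and *Igfbp6* like *Cpxm2* (0.62 and 0.72). For the other 3, *Sfrp2* was most like *Htra1* (0.48 and 0.80), *Dpt* like *Adamts12* (0.57 and 0.70) and *Clec3b* like *C1qtnf1* (0.77 and 0.53). These values describe the most alike of many genes and carry no test.

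Members were next compared between groups with edgeR's quasi-likelihood F-test across all genes tested, where adjusted p is the Benjamini-Hochberg value over all of them. The 12 comparisons asked whether the *Col3a1* mutation, hydralazine, their combination or an antagonist (with hydralazine, where set against untreated aortas) went with a different level. Several comparisons share libraries. No member passed in any of them with edgeR. Folds below are log2 ± SE.

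In VEDS against control aortas, *Igfbp6* and *Sfrp4* were higher in every VEDS library than the control median, under both treatments. Without treatment, 0 of 10 members were called, as were 0% of 12976 genes with edgeR, and DESeq2 called 0 members and 0% of genes. Of the 10, 2 had an unadjusted p under 0.05, against 3.04% of all genes. *Igfbp6* was higher in VEDS aortas by 0.63 ± 0.22 (edgeR adjusted p = 1.00), with 3 of 6 VEDS libraries above every control library, and *Sfrp4* by 0.36 ± 0.15 (edgeR adjusted p = 1.00). The other 8 lay between -0.09 and 0.20, and the median of the 10 was 0.08, against 0.00 over all genes. Under hydralazine, 0 members were called by edgeR (0% of 12966 genes) or DESeq2 (0.00771% of genes), and 4 had an unadjusted p under 0.05 (4.64% of genes). These were *Sfrp4* (0.53 ± 0.14), *Igfbp6* (0.58 ± 0.21) and *Fbln2* (0.31 ± 0.14), all higher in VEDS, and *Sfrp2* (-0.35 ± 0.13), lower in VEDS, each with an edgeR adjusted p of 0.923. With 1 surrogate variable in the fit *Fbln2* was at 0.19 and no longer had an unadjusted p under 0.05. The other 6 lay between -0.24 and -0.01.

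With both treatments in 1 fit, *Sfrp4* was higher in VEDS by 0.44 ± 0.11 (edgeR adjusted p = 1.00, DESeq2 adjusted p = 0.148) and *Igfbp6* by 0.61 ± 0.16 (edgeR adjusted p = 1.00, DESeq2 adjusted p = 0.271). Both were above the median of their treatment's controls in 12 of 12 VEDS libraries. *Fbln2* was higher by 0.26 ± 0.10 (edgeR adjusted p = 1.00) and *Sfrp2* lower, at -0.23 ± 0.09 (edgeR adjusted p = 1.00). These 4 of 10 members stood against 3.73% of 13235 genes at an unadjusted p under 0.05. No member was called by edgeR (0% of genes) or DESeq2 (0.0151%). A single library decided the call of *Sfrp4*, which passed edgeR without untreated control replicate 5 (0.52, adjusted p = 0.0218), the library with 85.7 CPM. Within the sets by *Col3a1*, *Igfbp6* had 86.9, 89.5 and 91.1 CPM in untreated VEDS libraries low in *Col3a1*, against 43.8, 44.5 and 53.8 CPM in the untreated control libraries low in *Col3a1*. Among those high in *Col3a1* it had 44.4, 44.9 and 52.2 CPM in untreated VEDS and 27.8, 40.3 and 53.9 CPM in untreated control libraries. Without treatment the genotypes were thus separate in the first set and overlapped in the second. In hydralazine libraries low in *Col3a1*, *Igfbp6* had 78.0, 81.3 and 84.7 CPM in VEDS and 43.4, 62.2 and 72.8 CPM in control. In those high in *Col3a1* it had 52.6, 57.5 and 72.4 CPM in VEDS and 25.8, 39.7 and 40.6 CPM in control. Under hydralazine the genotypes were thus separate in both sets. No test was run within sets of 3, and the share of all genes separate in them was not counted.

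All 10 macrophage markers were above 0 in the fit of both treatments and 6 had an unadjusted p under 0.05, with summed levels of 465 to 582 CPM in untreated VEDS and 257 to 639 CPM in untreated control aortas, and their part in the *Igfbp6* and *Sfrp4* values was not tested. The 6 cardiomyocyte markers were all below 0, 5 of them at an unadjusted p under 0.05. In the untreated comparison 6 of 7 adipocyte markers tested were above 0, 3 of them at an unadjusted p under 0.05, with a median of 0.53. All 8 summed to 437 to 1283 CPM in untreated VEDS and 113 to 802 CPM in untreated control aortas, and their part in the member values was not tested either.

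No other gene of the IGF, Wnt or fibulin lists reached an unadjusted p under 0.05 in the fit of both treatments. Of 14 genes of the IGF axis, 0 passed in either direction, and 12 were above 0 with a median of 0.11. Under hydralazine alone 10 of the 14 were above 0 with a median of 0.29, and 4 had an unadjusted p under 0.05. *Igfbp7*, the most abundant IGF-binding protein gene at 901 TPM, was at -0.07 ± 0.07. Of 13 Wnt regulators and targets tested, 0 passed, 7 were above 0 and *Sfrp4* and *Sfrp2* lay on opposite sides, with the Wnt-modulating family member *Dkk3* at -0.09 ± 0.08. Of 13 fibulin and microfibril genes, 0 passed and 6 were above 0, while *Mfap4* was at -0.13 ± 0.16. None of 7 genes of the PDGF axis, which holds *Pdgfra*, reached it. Among 17 other adventitial fibroblast markers tested, 0 passed, 11 were above 0 and the median was 0.06, with the abundant matrix proteoglycan gene *Dcn* at 0.09 ± 0.06. At an unadjusted p under 0.05, 2 of the 17 were higher and 1 lower.

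*Sfrp2* and *Fbln2* had positive fold changes with hydralazine in both genotypes, and with both genotypes in 1 fit both passed in DESeq2 and neither in edgeR. In VEDS aortas *Fbln2* was higher under hydralazine by 0.45 ± 0.11 (edgeR adjusted p = 1.00, DESeq2 adjusted p = 0.133), with all 6 hydralazine libraries above the untreated median and 4 above every untreated library, and *Sfrp2* by 0.35 ± 0.13 (edgeR adjusted p = 1.00). No member was called by edgeR (0% of 13006 genes) or DESeq2 (0.0154%), and these 2 of 10 stood against 4.53% of genes at an unadjusted p under 0.05. The other 8 lay between -0.31 for *Clec3b* and 0.23. In control aortas *Sfrp2* was higher by 0.60 ± 0.12 (edgeR adjusted p = 0.497), with 5 of 6 hydralazine libraries above every untreated library. It was the 1 of 10 members at an unadjusted p under 0.05 (9.50% of 12951 genes) and passed in DESeq2 (adjusted p = 0.0148, where 0.0463% of genes passed) but not in edgeR (0% of genes). It also passed in edgeR without control hydralazine replicate 1 (0.70, adjusted p = 0.0270). *Fbln2* in control aortas was at 0.33 ± 0.16 (edgeR adjusted p = 0.528), with an unadjusted p above 0.05, and the ranges overlapped. With 1 surrogate variable in the fit it was at 0.34 ± 0.12, and *Mfap5* at 0.33 ± 0.11, against 0.31 ± 0.29 without it. Both then had an unadjusted p under 0.05, and neither passed the adjusted threshold.

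With both genotypes in 1 fit, *Sfrp2* was higher under hydralazine by 0.46 ± 0.09 (edgeR adjusted p = 0.0833, DESeq2 adjusted p = 0.00149) and *Fbln2* by 0.38 ± 0.10 (edgeR adjusted p = 0.163, DESeq2 adjusted p = 0.0202). Against 0 of 10 members, edgeR called 0.00756% of 13235 genes, and against 2 of 10 DESeq2 called 0.71%. At an unadjusted p under 0.05 the same 2 members stood against 11.1% of genes. *Sfrp2* passed in edgeR without untreated VEDS replicate 6 (0.52, adjusted p = 0.0212) or without control hydralazine replicate 1 (0.50, adjusted p = 0.0189). It lay above the median of its genotype's untreated libraries in 11 of 12 hydralazine libraries. Of the 13 fibulin and microfibril genes, 13 were above 0 with a median of 0.15, against -0.01 over all genes, and 3 had an unadjusted p under 0.05, with 0 past the adjusted threshold in edgeR. *Fbln5*, an elastic fibre organiser, was at 0.17 ± 0.08 and *Mfap4* at 0.21 ± 0.16. Among the Wnt regulators *Sfrp2* was the 1 gene of 13 at an unadjusted p under 0.05, and *Sfrp1* was at -0.13 ± 0.06. Of 17 other adventitial fibroblast markers tested, 11 were above 0 (median 0.06), 1 of them at an unadjusted p under 0.05. Among markers of other cells in the same fit, 9 of 10 endothelial (2 at an unadjusted p under 0.05, median 0.09), 9 of 10 macrophage (1, median 0.06), 8 of 10 smooth muscle (1, median 0.03) and 6 of 6 cardiomyocyte markers (0, median 0.98) were above 0, and their part in the *Sfrp2* and *Fbln2* values was not tested. The effect of hydralazine was not shown to differ between genotypes, since the interaction had 0 of 10 members called (0% of 13407 genes) and 0 at an unadjusted p under 0.05 with edgeR (3.28% of genes), 0 by DESeq2 (0% of genes), and values between -0.30 and 0.16.

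**Figure D5:**
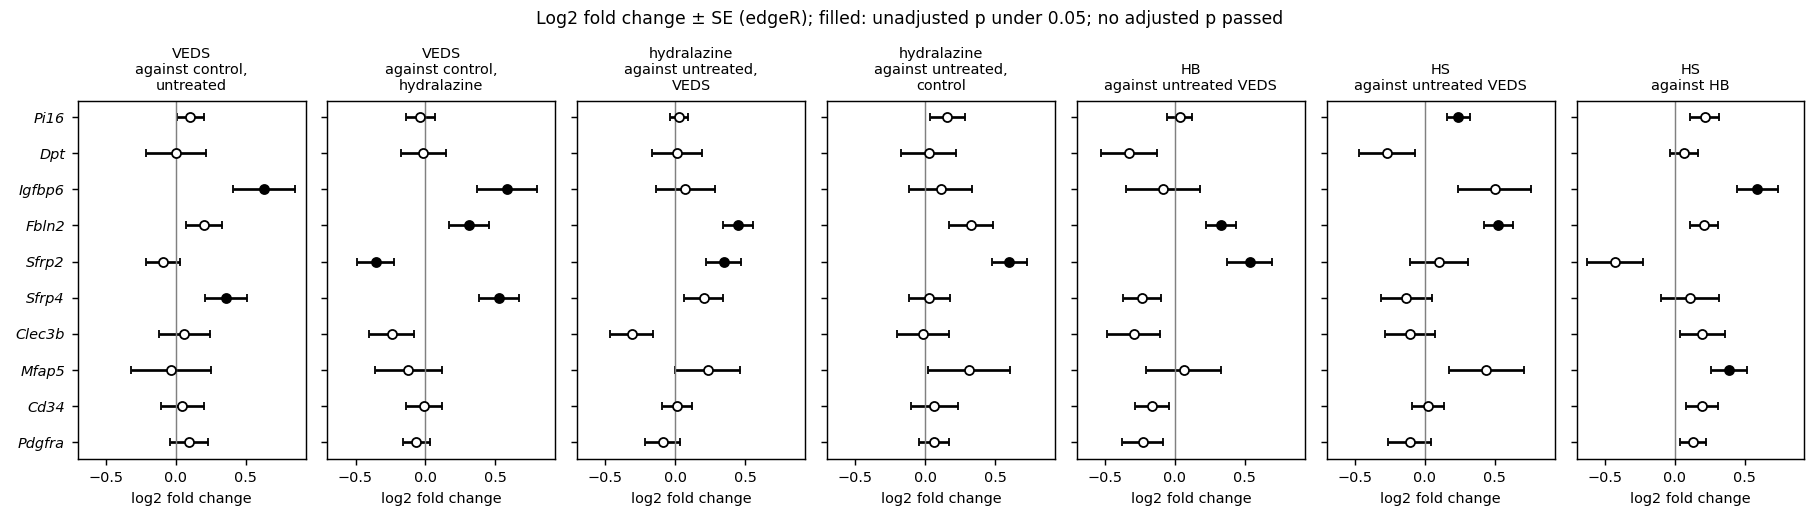
Log2 fold change (x axis, edgeR) of each member in 7 comparisons, with bars for the SE and filled points for an unadjusted p under 0.05. *Igfbp6* and *Sfrp4* lie above 0 in VEDS against control aortas (0.63 and 0.36 untreated), and *Sfrp2* (0.35 in VEDS, 0.60 in control) and *Fbln2* (0.45 and 0.33) under hydralazine.

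The antagonist groups were set first against untreated VEDS aortas. Here hydralazine, the antagonist and age differed together and cannot be told apart. Against VEDS aortas given hydralazine alone, *Fbln2* in HS was at 0.10 ± 0.12 and *Sfrp2* in HB at 0.20 ± 0.11, neither at an unadjusted p under 0.05. In HS, *Fbln2* was higher by 0.53 ± 0.10 (edgeR adjusted p = 0.0797) and passed in DESeq2 (adjusted p = 0.000146), and *Pi16* was higher by 0.24 ± 0.08 (edgeR adjusted p = 0.304). The edgeR test called 0 of 10 members and 0.309% of 13276 genes, and DESeq2 1 of 10 members and 2.22% of genes. Both genes were without overlap between HS and untreated VEDS libraries, 2 of 10 members against 5.46% of genes, and 11.1% of genes had an unadjusted p under 0.05. The other 8 members lay between -0.27 and 0.50. In HB, *Sfrp2* was higher by 0.53 ± 0.16 (edgeR adjusted p = 0.146, DESeq2 adjusted p = 0.0416) and *Fbln2* by 0.33 ± 0.11 (edgeR adjusted p = 0.175). Here edgeR called 0 of 10 members and 0.409% of 13204 genes, DESeq2 1 of 10 and 4.27%, and 16.4% of genes had an unadjusted p under 0.05. Markers of other cells were read in the same fits. In HB all 8 adipocyte markers were below 0 (6 at an unadjusted p under 0.05), with summed levels of 130 to 408 CPM in HB and 437 to 1283 CPM in untreated VEDS libraries. All 10 smooth muscle markers were above 0 (5 at an unadjusted p under 0.05), as were all 6 cardiomyocyte markers (5, median 3.62), whose sum was 254, 288 and 918 CPM in HB and 145 to 253 CPM in untreated VEDS libraries. In HS 6 of 8 adipocyte markers were below 0 (3 at an unadjusted p under 0.05, median -0.42), with sums of 149 to 508.7 CPM in HS against the same 437 to 1283 CPM in untreated VEDS. Of 10 endothelial markers, 3 were above 0 and 2 below 0 at an unadjusted p under 0.05 in HS. The part of these other cells in the member values was not tested. Of 17 other adventitial fibroblast markers tested, 11 were above 0 in HS (median 0.17), 5 higher and 0 lower at an unadjusted p under 0.05. In HB 8 of 17 were above 0, 2 higher and 1 lower at that threshold. No such marker passed the adjusted threshold.

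All 6 antagonist libraries were low in *Col3a1*, as were 3 of 6 untreated VEDS libraries, and the levels in those 3 are set beside HS and HB here. *Mfap5* had 375 to 477 CPM in HS and 275 to 349 CPM in HB, both above the 197, 205 and 228 CPM of the 3 untreated VEDS libraries. *Fbln2* likewise had 339 to 356 CPM in HS and 282 to 341 CPM in HB, both above 212, 219.6 and 233 CPM. *Sfrp2* had 148 to 185 CPM in HB, above 88.0, 91.2 and 120.4 CPM, and overlapped them in HS. *Igfbp6* had 81.3 to 112 CPM in HS, around the 86.9, 89.5 and 91.1 CPM of the 3 untreated VEDS libraries, and 55.5 to 74.1 CPM in HB, below them. *Dpt* had 205 to 230.0 CPM in HS and 188 to 224 CPM in HB, overlapping the 185, 206 and 209 CPM of the 3 untreated VEDS libraries. The 3 untreated VEDS libraries also lacked hydralazine, which HS and HB received. These are values of 3 libraries a group with no test, and the share of all genes separate in these sets was not counted. In HS against HB, also 3 libraries against 3, 13.6% of genes were without overlap.

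The antagonist groups were also set against VEDS aortas given hydralazine alone. In HS, *Pi16* was higher by 0.24 ± 0.08 (edgeR adjusted p = 0.332), without overlap between the groups, and *Igfbp6* by 0.45 ± 0.16 (edgeR adjusted p = 0.332). The groups lay close in *Pi16*, at 366.2 CPM in the lowest HS library and 365.4 CPM in the highest VEDS hydralazine library. With 1 surrogate variable in the fit *Igfbp6* was at 0.14 and *Pi16* at 0.16, neither at an unadjusted p under 0.05, whereas *Fbln2* was at 0.34, with an unadjusted p under 0.05, and *Mfap5* at 0.50, against 0.10 ± 0.12 and 0.23 ± 0.20 without it. In libraries low in *Col3a1*, *Fbln2* had 339 to 356 CPM in HS and 265, 267 and 321 CPM in VEDS hydralazine. *Mfap5* had 375 to 477 CPM in HS and 256, 257 and 337 CPM in VEDS hydralazine. Both were without overlap and untested, and the share of all genes without overlap in these sets was not counted. Of 10 endothelial markers 3 were above 0 and 1 below 0 at an unadjusted p under 0.05, and their part in these values was not tested. Of 17 other adventitial fibroblast markers tested, 10 were above 0 (median 0.06). At an unadjusted p under 0.05, 6 were higher and 2 lower, and 0 passed the adjusted threshold. The edgeR test called 0 of 10 members and 0% of 13304 genes, DESeq2 0 members and 0.398% of genes, and 13.6% of genes had an unadjusted p under 0.05. The non-overlapping gene *Pi16*, 1 of 10, stood against 5.77% of genes. In HB, *Sfrp4* was lower, at -0.43 ± 0.17 (edgeR adjusted p = 0.280), with 2 of 3 HB libraries below every hydralazine library. It was the 1 of 10 members at an unadjusted p under 0.05 (15.5% of genes), and with 1 surrogate variable its value was -0.67. In that fit *Igfbp6* was at -0.36 and also had an unadjusted p under 0.05. All 10 smooth muscle markers (5 at an unadjusted p under 0.05, median 0.35) and all 6 cardiomyocyte markers (6, median 3.45) were above 0 and all 8 adipocyte markers below 0 (1, median -0.68), and their part in the *Sfrp4* value was not tested. The edgeR test called 0 of 10 members and 0.0151% of 13266 genes, and DESeq2 0 members and 4.33% of genes. Of 17 other adventitial fibroblast markers tested, 8 were above 0 in HB, 1 higher and 2 lower at an unadjusted p under 0.05.

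Both antagonist groups were of the same age, so HS and HB could be compared directly. *Igfbp6* was higher in HS than in HB by 0.59 ± 0.15 (edgeR adjusted p = 0.584, DESeq2 adjusted p = 0.0653) and *Mfap5* by 0.39 ± 0.13 (edgeR adjusted p = 0.679), both without overlap between the 3 HS and 3 HB libraries. These 2 of 10 members stood against 13.6% of genes without overlap and 6.68% at an unadjusted p under 0.05. The edgeR test called 0 of 10 members and 0% of 12800 genes, and DESeq2 0 members and 0.266% of genes. Of the 10 members, 9 lay above 0, against 53.7% of all genes, with a median of 0.20 against 0.02 over all genes, and *Sfrp2* alone lay below it, at -0.43. The summed level of the 10 smooth muscle markers was 22460 to 24170 CPM in HS and 26580 to 29394 CPM in HB, with all 10 below 0 and 5 at an unadjusted p under 0.05, and its part in the member values was not tested. Nor was that of 10 endothelial markers (8 above 0, 4 at an unadjusted p under 0.05, median 0.19, summing to 1087 to 1312 CPM in HS and 871 to 1194 CPM in HB), of 8 adipocyte markers (7 above 0, none at an unadjusted p under 0.05, median 0.59) or of 5 cardiomyocyte markers tested (0 above 0, 4 at an unadjusted p under 0.05, median -3.84). The 18 other adventitial markers summed to 5567 to 5778 CPM in HS and 5086 to 5685 CPM in HB. Of 17 tested, 12 were above 0 with a median of 0.09. At an unadjusted p under 0.05, 3 were higher and 0 lower, and 0 passed the adjusted threshold.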

How the data were processed

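Total RNA of 30 aortas was made into TruSeq Stranded Total RNA libraries and sequenced on a NovaSeq6000, and the authors used CASAVA 1.8.4 for base call conversion and RSEM with STAR for gene quantification on mm39. The deposited files hold RSEM expected counts, TPM and lengths per gene. Expected counts were whole in 97.6% of cells (tolerance 1e-06), and all were rounded before testing. Totals ran between 5517510 and 8293289 per library. No 2 libraries of a group agreed within sampling noise (lowest chi-square per degree of freedom 2.79). P-values measure the spread between these aortas.

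Each of 12 comparisons was fitted on its own libraries with edgeR 4.0.16 in R 4.3.3 (quasi-likelihood F-test, TMM, default expression filter, Benjamini-Hochberg over all genes tested, called at 0.05). All 10 members passed the filter in every comparison. CPM were scaled with TMM over 30 libraries. The deposited TPM served only to order genes. Members with an unadjusted p under 0.05, at most 6, were named with their fold changes, and the most abundant genes of a list. The members and lists were chosen with earlier results of these data known. Correlations used exact permutations within groups, inside each set by *Col3a1*, and the pooled values over 30 libraries are not given because the libraries fall into these sets. The alternatives were DESeq2 1.42.0, other size factors, no filter, 1 fit of all libraries, 1 or 2 surrogate variables (sva 3.50.0), another pseudocount and left-out libraries. The steps were tested on simulated data with known changes.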

Additional observations from a re-analysis of the deposited data

Results flagged for a closer look

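In 40 checks of a member within a group of 6, 1 library lay far from the rest of its group. *Sfrp4* in untreated control replicate 5 was at 85.7 CPM, against 54.7 CPM in the next highest of the 6, a gap of 0.803 of the whole range of the group. Chance flags about 1 in 20 such groups. The same library had the highest summed macrophage and adipocyte levels of its group (639 and 802 CPM), and their part in the *Sfrp4* value was not tested.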

How the results depend on the processing

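All 60 levels kept their value within 1 SD under the other scaling, and the 18 summaries of co-variation kept theirs. Of 491 repeats of a named fold change, 476 kept direction and side of the threshold, 15 came to pass it and 0 reversed. Of 244 repeats of the count of members called, 232 stayed at 0. DESeq2 called 1 member (*Sfrp2*) for hydralazine in controls, 2 for hydralazine in both genotypes (*Sfrp2*, *Fbln2*), 1 (*Sfrp2*) for HB and 1 (*Fbln2*) for HS against untreated VEDS. With 2 surrogate variables, an alternative added after the data were seen, edgeR called 2 for hydralazine in both genotypes (*Sfrp2*, adjusted p = 0.00934, and *Fbln2*, 0.00706, of 142 genes called), 3 for HB (*Fbln2*, *Sfrp2*, *Mfap5*, of 582) and 2 for HS (*Fbln2*, *Mfap5*, of 153) against untreated VEDS, and 1 for HB against hydralazine (*Sfrp4*, -0.56, adjusted p = 0.0216, of 149). With 1 library left out the count ranged from 0 to 1 for VEDS against control in both treatments, for hydralazine in controls and for hydralazine in both genotypes, and was 0 elsewhere. The cause was not tested. No paired analysis was possible because the labels give no replicate numbers shared between groups. Age and extraction batch are unlabelled, and n is 3 in HS and HB. Every member had at least 164 counts, but counting error was not small beside the spread in every group. The SD was only 2.18% of the mean for *Pdgfra* in HB and 2.38% for *Fbln2* in HS.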
